A study of Mus musculus with 2 samples.

Results

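The expression of 10 transcription factors that govern memory and effector fates of T cells was examined in tumor-infiltrating lymphocytes. These genes were Tcf7, Lef1, Bach2, Klf2, Id2, Id3, Eomes, Tbx21, Foxp3 and Ikzf2, chosen by symbol as regulators of these fates with earlier results of these data known, and each of the 10 matched 1 of the 32285 genes in both count tables. They were followed in CD8 T, CD4 T and natural killer (NK) cells. Orthotopic pancreatic tumors were of K210 cells, from engineered mice whose alleles include floxed Trp53 (Trp53 fl/fl) and Cre under the Pdx1 promoter (Pdx1-Cre). The tumor hosts were male C57BL/6J mice, 5 to 6 weeks old when sourced. They received PBS or cmExoaCD11b, that is, exosomes loaded with IL-12 mRNA and cGAMP (5 µg per mouse) and coupled to an antibody against CD11b. At 48 h the tumor immune cells from 3 mice per treatment were combined, and each pool gave 1 droplet library. There were thus 2 libraries, 1 per treatment, so no difference between them has a replicate check and no test was possible.

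Tcf7 and Lef1 encode partner factors of the Wnt pathway that are high in naive and memory T cells and fall as cells become effectors. Bach2 restrains effector genes, and Klf2 drives the receptors that let T cells leave tissue for lymph and blood. Tbx21 (T-bet) and Eomes are T-box factors that switch on interferon-gamma and cytotoxic genes in CD8 T and NK cells, and IL-12 is a known inducer of Tbx21. Id2 and Id3 are inhibitors of E proteins, with Id2 favoring effector cells and Id3 memory precursors. Foxp3 is the defining factor of regulatory T cells, and Ikzf2 (Helios) is found in many of them and also in some activated T cells.

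After filtering, 6830 PBS and 7061 cmExoaCD11b cells remained, with medians of 3468 and 4114 unique molecular identifiers (UMIs) per cell, and 16 cell barcodes occurred in both libraries. Cells were gated by UMIs of marker genes: a Cd3 UMI with Cd8a or Cd8b1 and no Cd4 for CD8 T cells, Cd3 with Cd4 and no Cd8 for CD4 T cells, and Ncr1 or Klrb1c without Cd3, Cd4 or Cd8 for NK cells. At most 1 UMI from 13 markers of other cells was allowed, and S100a8 plus S100a9, the abundant neutrophil transcripts, had to stay at or below 1% of UMIs. The CD8 T gate held 135 PBS and 376 cmExoaCD11b cells, the CD4 T gate 130 and 235, and the NK gate 25 and 92. Their share of all kept cells differed by a factor of 2.69 (95% interval 2.21 to 3.30) for CD8 T, 1.75 (1.41 to 2.18) for CD4 T and 3.56 (2.27 to 5.78) for NK cells. Of all cells with a Cd3 UMI, the limits left 370 of 789 in PBS and 462 of 1436 in cmExoaCD11b outside the T cell gates, an unequal loss on which the T cell share ratios depend. Median depths were 4965 and 3800 UMIs in CD8 T cells, 4912 and 4553 in CD4 T cells, and 2695 and 3417 in NK cells. Several genes that were not used for gating separated the gates, and others did so less. The helper gene Cd40lg reached 205 and 149.7 counts per 1000000 UMIs (CPM) in the CD4 T gate against 16.4 and 0.605 in the CD8 T gate, for PBS and cmExoaCD11b in this order. The NK receptor gene Klra8 stood at 829 and 778 CPM in the NK gate, where the T cell receptor gene Trac had 2 and 1 UMIs. In the CD4 T gate Klra8 reached 16.3 CPM in cmExoaCD11b (19 UMIs). The T cell receptor gene Trbc1 stood at 168 and 288 CPM in the NK gate, against 418 and 579 CPM in the CD8 T gate. The chemokine gene Ccl5 hardly separated these 2 gates in cmExoaCD11b, at 17498 CPM in NK and 16917 CPM in CD8 T cells. The share of free RNA from lysed cells, read from S100a8 and S100a9, was 2.33% to 2.95% of UMIs in these gates. Since the gates cap the same 2 genes at 1% of UMIs, this estimate is bounded by the gating and may be too low.

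A level is given as CPM, the UMIs of a gene over the summed UMIs of the gated cells of a library. Levels have exact Poisson intervals and ratios of cmExoaCD11b to PBS have exact conditional intervals, each at 95%. They cover counting error only, without cell-to-cell or mouse-to-mouse spread, and are too narrow where few cells hold many UMIs. Shares of cells have exact Clopper-Pearson intervals. A gene with at least 20 UMIs in a gate, both libraries together, was called higher or lower when the ratio was at least 1.5 either way and its interval excluded 1. Because CPM is relative to all RNA of a gate, values of a gene compare between libraries and gates, and no order between genes is drawn from them.

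**Figure D1:**
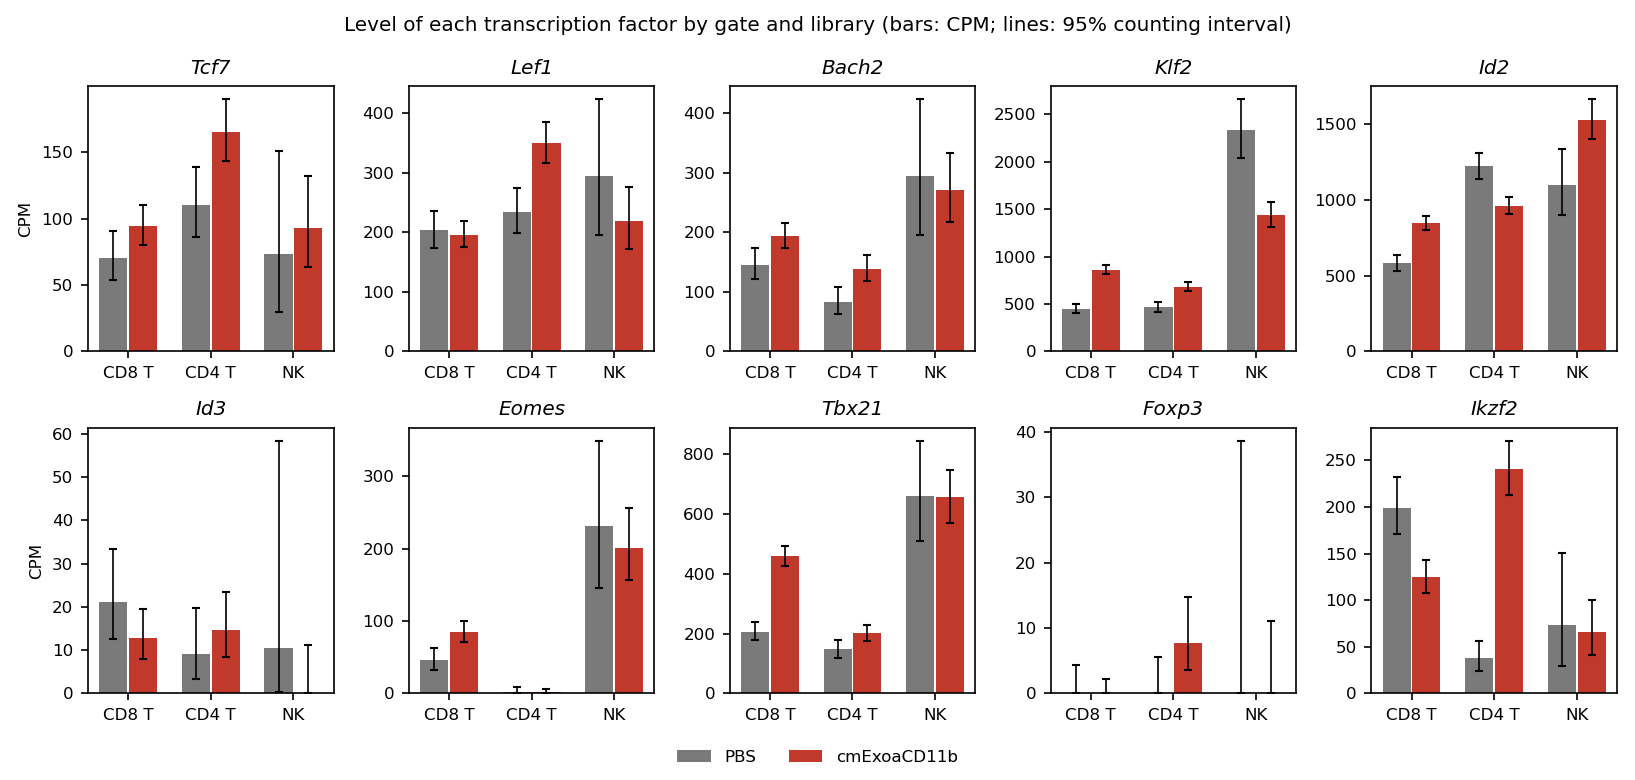
Level of each of the 10 transcription factors in CPM (vertical axis, linear from 0) in the CD8 T, CD4 T and NK gates, with PBS in gray and cmExoaCD11b in red. Bars are the level of 1 library and lines its 95% counting interval. Tbx21 was 206 in PBS and 459 CPM in cmExoaCD11b in the CD8 T gate, and Ikzf2 37.8 and 241 CPM in the CD4 T gate.

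In the CD8 T gate, the T-box factors and Klf2 were higher in cmExoaCD11b, while the partner factors Tcf7 and Lef1 passed no threshold. Of 9 members with enough UMIs, 3 were called higher (Tbx21, Klf2 and Eomes) and 1 lower (Ikzf2), and Foxp3 had 0 UMIs in either library. Among all 8543 genes tested in this gate, 11.0% were called higher and 9.80% lower. The median log2 ratio was 0.42 over the 9 members and 0.04 over all genes tested.

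Tbx21 (ENSMUSG00000001444) had 176 UMIs in 135 PBS cells and 759 in 376 cmExoaCD11b cells, or 206 CPM (177 to 239) and 459 CPM (427 to 493). The cmExoaCD11b level was the higher one and the intervals did not overlap. The ratio was 2.22 (1.88 to 2.63), and it ran from 1.71 to 2.32 over 16 alternative ways of processing, with the call kept in each. The cell with most Tbx21 UMIs gave 7.95% of them in PBS and 3.56% in cmExoaCD11b, so no single cell made up most of it. The share of CD8 T cells with at least 1 Tbx21 UMI was nevertheless 58.5% in PBS and 58.2% in cmExoaCD11b at their unequal depths. When each cell was thinned to 1000 UMIs, the shares became 21.6% (15.0 to 29.6) of 134 cells and 32.3% (27.6 to 37.4) of 368 cells. Their ratio of 1.49 had an interval of 0.989 to 2.33, which includes 1, so the difference was seen in the summed level and was not resolved in the share of cells. Neutrophils, which should lack Tbx21, had a UMI in 0.215% of PBS and 0.824% of cmExoaCD11b cells at median depths of 4108 and 5932 UMIs.

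Eomes (ENSMUSG00000032446), the second T-box factor, had 45.8 CPM in PBS (32.5 to 62.5) and 84.7 CPM in cmExoaCD11b (71.2 to 99.9). The cmExoaCD11b level was higher without overlap of the intervals, at a ratio of 1.85 (1.29 to 2.71). Cells with an Eomes UMI were 14.1% and 17.8%. After thinning, 5.22% and 8.42% of cells had one, a ratio of 1.61 (0.697 to 4.34) that this depth could not tell from 1. Neutrophils had an Eomes UMI in 0.0538% and 0.0824% of cells. With the deepest barcodes alone, 43 and 47 cells, the Eomes ratio was 1.31 (0.721 to 2.38) and the call was lost.

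Klf2 (ENSMUSG00000055148), a regulator of T cell exit from tissue, stood at 449 CPM in PBS (405 to 497) and at 863 CPM in cmExoaCD11b (819 to 909). The levels did not overlap, and the ratio was 1.92 (1.71 to 2.16). Klf2 was also abundant outside the lymphocytes, at 3652 and 2882 CPM in neutrophils and 3629 and 2569 CPM in empty droplets. Free RNA at the estimated share would give 84.4 CPM of the PBS level (18.8%) and 70.3 CPM of the cmExoaCD11b level (8.15%), and the ratio after subtracting it was 2.17. Without the limit on markers of other cells the gate grew to 168 and 418 cells and the Klf2 ratio was 1.03 (0.953 to 1.11). With each cell weighted equally it was 1.49, just below the threshold. In the NK gate, described further on, Klf2 differed in the other direction.

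The promoters of the 3 members called higher in the CD8 T gate are shown because these genes differed in the same direction. IL-12 and cGAMP act through STAT and interferon regulatory factors, whose motifs were looked up. Whether either acted in these CD8 T cells was not tested. Each run is the 250 bases before the start of transcription in RefSeq (GRCm38.p6), 5′ to 3′ on the strand of the gene. The build of the count tables is not given in the sources used here. Capitals mark matches on either strand to the STAT motif TTCNNNGAA, the interferon regulatory factor motif (GAAA, then N at 2 positions, then GAAA) or the GC box GGGCGG, and matches may overlap.
Tbx21 (chr11:97115332-97115581, minus strand): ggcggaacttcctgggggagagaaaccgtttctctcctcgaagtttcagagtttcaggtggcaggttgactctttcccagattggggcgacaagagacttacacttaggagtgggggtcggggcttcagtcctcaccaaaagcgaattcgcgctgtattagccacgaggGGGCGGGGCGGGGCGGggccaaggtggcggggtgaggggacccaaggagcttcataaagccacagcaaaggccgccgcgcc
Eomes (chr9:118477939-118478188, plus strand): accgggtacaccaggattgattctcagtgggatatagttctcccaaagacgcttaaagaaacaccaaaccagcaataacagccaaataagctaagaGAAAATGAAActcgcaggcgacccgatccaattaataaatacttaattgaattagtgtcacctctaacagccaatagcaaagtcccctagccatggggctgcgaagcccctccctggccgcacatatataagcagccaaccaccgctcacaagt
Klf2 (chr8:72318812-72319061, plus strand): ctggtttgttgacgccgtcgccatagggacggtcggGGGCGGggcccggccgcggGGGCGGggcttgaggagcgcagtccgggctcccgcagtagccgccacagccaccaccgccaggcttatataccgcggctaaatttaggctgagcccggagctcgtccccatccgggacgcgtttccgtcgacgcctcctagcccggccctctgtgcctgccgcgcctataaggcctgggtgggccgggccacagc
In Tbx21 the capitals are 3 GC boxes that follow one another and share bases, 81 to 66 bases before the start. Eomes held 1 match to the interferon regulatory factor motif, 154 to 145 bases before its start, and Klf2 held 2 GC boxes. No match to the STAT motif lay in these 3 windows, which says only that these letters are not there. Among all 32851 RefSeq promoters of this length, 7.02% held the STAT motif, 2.98% the interferon regulatory factor motif and 32.7% the GC box. Of the 9 members with a promoter in the table, the STAT motif occurred in Bach2 and Foxp3. The GC box occurred in 6 of them, Tbx21 and Klf2 but also Tcf7, Lef1, Id2 and Id3, which were not called in the CD8 T gate. A member counts here if any of its promoters matched, whereas the shares above count promoters. The 9 members had 14 promoters, of which 9 held the GC box, 2 the STAT motif and 1 the interferon regulatory factor motif. A match is a description of the letters and not of binding.

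**Figure D2:**
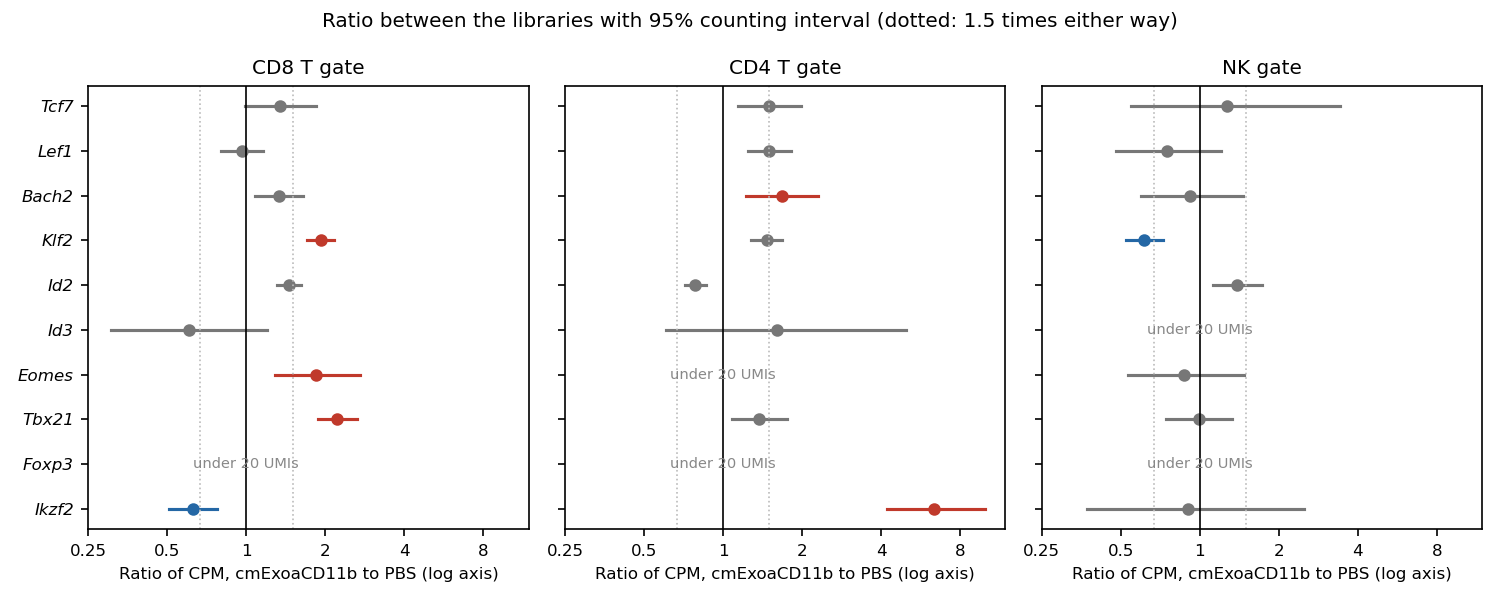
Ratio of CPM, cmExoaCD11b to PBS (horizontal log axis), of the 10 transcription factors in each gate. Points are ratios, lines 95% counting intervals, red called higher and blue called lower, and dotted lines mark 1.5 times either way. In the CD8 T gate 3 members lie to the right of the dotted lines, and Ikzf2 (called lower) and Id3 (not called) to the left. Ikzf2 reaches 6.38 in the CD4 T gate.

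Id2 (ENSMUSG00000020644), the inhibitor that favors effector cells, was measured at 583 CPM (533 to 637) for PBS and 846 CPM (802 to 892) for cmExoaCD11b. The levels did not overlap, but the ratio of 1.45 (1.31 to 1.61) stayed under the threshold of 1.5. Its counterpart Id3 (ENSMUSG00000007872) was scarce, with 18 and 21 UMIs, and its levels of 21.1 CPM (12.5 to 33.4) and 12.7 CPM (7.86 to 19.4) were not resolved at this depth.

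None of the factors Tcf7, Lef1 and Bach2 passed the threshold. The Tcf7 level (ENSMUSG00000000782) was 70.4 CPM for PBS (53.7 to 90.6) and 94.4 CPM for cmExoaCD11b (80.1 to 110.4), at a ratio of 1.34 (0.989 to 1.84). The intervals of the levels overlapped. The share of CD8 T cells with a Tcf7 UMI was 22.2% in PBS and 18.6% in cmExoaCD11b unthinned, and 7.46% (3.64 to 13.3) and 5.98% (3.78 to 8.91) after thinning. The thinned ratio was 0.801 (0.364 to 1.89), so neither a gain nor a loss of Tcf7-positive cells was detectable, whereas a loss to below 0.364 times lay outside the interval. Neutrophils had a Tcf7 UMI in 0.377% and 0.618% of cells. Lef1 (ENSMUSG00000027985) had 203 and 195 CPM, a ratio of 0.963 (0.798 to 1.16). Bach2 (ENSMUSG00000040270) had 145 and 194 CPM, a ratio of 1.33 (1.08 to 1.65) that stayed under the threshold.

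Ikzf2 (ENSMUSG00000025997) was called lower in CD8 T cells, but 1 cell decided that call. Its level was 199 CPM for PBS (171 to 232) and 125 CPM for cmExoaCD11b (108 to 143), a ratio of 0.625 (0.507 to 0.770). Of the 170 UMIs in PBS, 83 came from a single dividing cell of 22414 UMIs with 14 Cd8a and 15 Top2a UMIs. Without the cell with most Ikzf2 UMIs in each library the levels were 105 and 114 CPM and the ratio was 1.09 (0.842 to 1.42). With each cell weighted equally the ratio was 1.07. Among CD8 T cells without a UMI of the division genes Mki67 and Top2a, Ikzf2 was higher in cmExoaCD11b, at 57.7 and 112 CPM and a ratio of 1.95 (1.28 to 3.06). The ratio there was 1.69 (1.11 to 2.68) without the top cell of cmExoaCD11b. No direction was therefore drawn for Ikzf2 in the whole CD8 T gate.

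**Figure D3:**
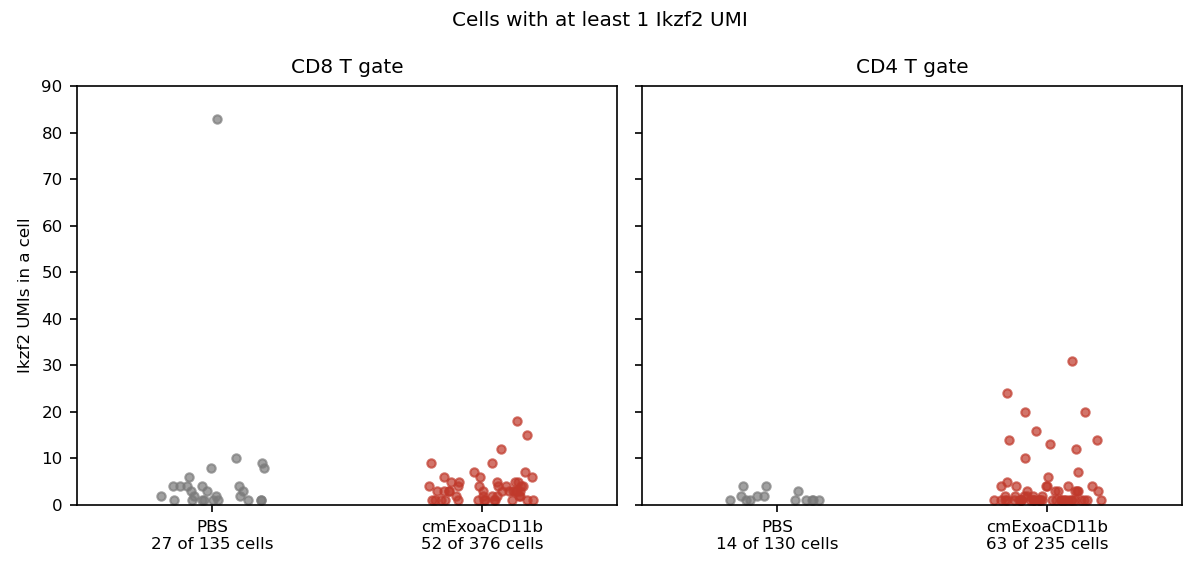
Ikzf2 UMIs (vertical axis, linear) in each cell with at least 1, by library, in the CD8 T gate and the CD4 T gate, with random horizontal spread. A single PBS cell of the CD8 T gate held 83 UMIs, and cells with a UMI were 14 of 130 in PBS and 63 of 235 in cmExoaCD11b in the CD4 T gate.

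Genes that work with these factors were read from 4 lists. Of 7 naive and memory genes tested in the CD8 T gate, 2 were called higher and 0 lower. These were Ccr7, the lymph node homing receptor (9.39 and 32.7 CPM, ratio 3.48, 1.65 to 8.47), and the chromatin organizer Satb1 (203 and 357 CPM, ratio 1.76, 1.48 to 2.10). Of 17 effector and exhaustion genes, 5 were called higher and 3 lower. Batf, an activation factor, had a ratio of 2.54 (1.85 to 3.57), Zeb2, which acts with T-bet in terminal effectors, 2.02 (1.77 to 2.31), and granzyme gene Gzmb 1.90 (1.74 to 2.07). Stat4, the transducer of IL-12 signals, had 287 and 515 CPM, a ratio of 1.79 (1.55 to 2.07). Nr4a2 also passed, at 320.3 and 549.8 CPM. In the other direction the perforin gene Prf1 was called lower at 0.559 (0.457 to 0.684), Irf8 at 0.554 (0.404 to 0.761) and the checkpoint gene Pdcd1 at 0.630 (0.497 to 0.799). Genes named for effector function thus differed in both directions. Among 6 regulatory T cell genes tested, Tnfrsf4 was called lower at 0.144 (0.0691 to 0.278) and 5 were not called. Among 5 helper regulators, Runx1 at 2.67 (2.18 to 3.30) and Gata3 at 1.72 (1.19 to 2.55) were called higher.

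Dividing CD8 T cells, those with a Mki67 or Top2a UMI, were 41 of 135 in PBS and 88 of 376 in cmExoaCD11b. Tcf7 and Lef1 were lower in them, with quotients to non-dividing cells of 0.405 (0.210 to 0.740) and 0.414 (0.287 to 0.588) in PBS and of 0.424 (0.260 to 0.664) and 0.387 (0.275 to 0.533) in cmExoaCD11b. Tbx21 was nearly equal, at 1.08 (0.797 to 1.47) and 1.11 (0.945 to 1.29). The Tbx21 ratio between libraries was 2.29 (1.77 to 2.97) in dividing and 2.24 (1.79 to 2.82) in non-dividing cells, so it was as large in either. Id2, in contrast, had a ratio of 2.07 (1.73 to 2.48) in dividing cells and 1.17 (1.03 to 1.33) in the rest.

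CD8 T cells with a Tcf7 UMI, 30 in PBS and 70 in cmExoaCD11b, were compared with those without within each library. Their Lef1 level was 1.92 (1.39 to 2.63) and 3.63 (2.90 to 4.54) times as high, that of Bach2 1.85 (1.26 to 2.69) and 2.11 (1.67 to 2.66) times, and that of Id3 10.6 (3.33 to 44.3) and 4.63 (1.79 to 12.4) times. Id2 was lower in both libraries, at 0.634 (0.497 to 0.802) and 0.448 (0.378 to 0.529). The granzyme genes Gzmb (0.175, 0.121 to 0.245, and 0.117, 0.0920 to 0.146) and Gzma (0.0251, 0.00812 to 0.0589, and 0.141, 0.120 to 0.166) were lower as well. Tbx21 was 0.835 times as high in PBS, where the interval includes 1, and 0.497 (0.396 to 0.617) in cmExoaCD11b. The checkpoint gene Pdcd1 was at 0.422 (0.233 to 0.714) and 0.282 (0.142 to 0.507), and Havcr2 at 0.346 (0.0894 to 0.969) and 0.0890 (0.0106 to 0.333). Other genes did not match between the libraries. Eomes was at 0.551 (0.189 to 1.33) in PBS and 1.54 (1.05 to 2.23) in cmExoaCD11b, and Il7r at 0.899 (0.598 to 1.32) and 2.67 (2.08 to 3.42). Ikzf2 was at 4.33 (3.16 to 5.96) and 0.273 (0.150 to 0.461). The PBS value includes the cell with 83 Ikzf2 UMIs, without which the level was 89.9 CPM against 109 CPM in PBS cells without Tcf7. Cells with a Tcf7 UMI were deeper, with medians of 5824 against 4646 UMIs in PBS and 4971 against 3548 in cmExoaCD11b, since a UMI is easier to find in a deep cell.

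In the CD4 T gate, Ikzf2 and Bach2 were called higher in cmExoaCD11b and no member was called lower, among 8 tested. Of 7881 genes tested, 7.66% were called higher and 3.98% lower. The median log2 ratio was 0.58 over the members and 0.07 over all genes.

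Ikzf2 had 25 UMIs in 130 PBS cells and 280 in 235 cmExoaCD11b cells, or 37.8 CPM (24.4 to 55.8) and 241 CPM (213 to 271). The levels did not overlap, at a ratio of 6.38 (4.23 to 10.0), which ran from 4.62 to 6.67 over 16 alternatives with the call kept in each. The cell with most Ikzf2 UMIs held 31 of the 280, and without the top cell of each library the level was 32.3 and 215 CPM. Cells with a UMI were 14 of 130 (10.8%) and 63 of 235 (26.8%). After thinning to 1000 UMIs they were 5 of 130 (3.85%, 1.26 to 8.75) and 28 of 233 (8.14% to 16.9%), a ratio of the shares of 3.12 (1.19 to 10.4), so more cells carried the transcript. Neutrophils had an Ikzf2 UMI in 0.484% and 0.989% of cells. T cells outside both lineage gates, most of them without a Cd4 or Cd8 UMI, held 136 Ikzf2 UMIs in PBS and 468 in cmExoaCD11b. Their levels were 259 and 367 CPM, a ratio of 1.42 (1.17 to 1.73) that was not called. The ratio of 6.38 thus holds for cells in which a Cd4 UMI was found and not for all T cells without Cd8.

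Bach2 stood at 83.1 CPM in PBS (62.6 to 108) and 138 CPM in cmExoaCD11b (118 to 162), a ratio of 1.67 (1.22 to 2.31). With the deepest barcodes alone, 32 and 23 cells, its ratio was 1.01 (0.503 to 2.05), and without the limit on other-cell markers 1.39 (1.10 to 1.76). Tcf7 had 110.3 and 165 CPM and Lef1 234 and 349 CPM. The Tcf7 ratio (1.14 to 1.99) fell just under 1.5 and that of Lef1 was 1.49 (1.24 to 1.81), and Tcf7 passed it in 8 and Lef1 in 5 of 16 alternatives. Klf2 had 465 and 682 CPM, a ratio of 1.47 (1.28 to 1.68). A single PBS cell held 72 of its 308 Klf2 UMIs, and without the top cells the ratio was 1.80 (1.55 to 2.09). The level ratios of Tcf7, Lef1, Bach2 and Klf2 were thus each above 1 with intervals that excluded it. With the deepest barcodes alone that of Klf2 was 0.858 (0.670 to 1.10). The share of cells with a UMI after thinning was not resolved for Tcf7, Lef1 and Bach2. Its ratio was 1.04 (0.522 to 2.15) for Tcf7, 1.18 (0.722 to 1.99) for Lef1 and 1.72 (0.853 to 3.77) for Bach2. For Klf2 it was 1.57 (1.01 to 2.52).

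Id2 was lower, at 1224 CPM in PBS and 959.9 CPM in cmExoaCD11b, a ratio of 0.784 (0.716 to 0.860) that was under the threshold. Tbx21 had 147 and 201 CPM, a ratio of 1.37 (1.08 to 1.76). Id3 had 6 and 17 UMIs, a level of 9.06 and 14.6 CPM that was not resolved, and Eomes 1 and 2 UMIs, which is too few for a ratio.

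Foxp3 (ENSMUSG00000039521) had 0 UMIs in PBS, with an upper bound of 5.57 CPM, and 9 UMIs (7.74 CPM) in cmExoaCD11b. The exact interval of the ratio starts at 1.12, and 9 UMIs were too few for a call. Thinned, 0 of 130 cells had a Foxp3 UMI in PBS, which allows a share of up to 2.80%, and 2 of 233 cells (0.858%, 0.104 to 3.07) in cmExoaCD11b. Unthinned it was 8 of 235 cells (3.40%, 1.48 to 6.60), at a median of 2513 UMIs per cell. Neutrophils had a Foxp3 UMI in 0 of 1859 and 1 of 2426 cells (0.0412%). The limits concern cells with a UMI, not cells that express the gene.

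More Foxp3 was found among T cells with no Cd4 or Cd8 UMI. Of the T cells outside both lineage gates, 154 in PBS and 363 in cmExoaCD11b, 147 and 350 had no UMI of either lineage and the rest had both. They held 5 Foxp3 UMIs in 3 cells and 26 in 12 cells, or 9.52 and 20.4 CPM, a ratio of 2.14 (0.809 to 7.14). All T gates together held 3 Foxp3-positive cells of 419 in PBS and 20 of 974 in cmExoaCD11b. These unthinned shares, 0.716% (0.148 to 2.08) and 2.05% (1.26 to 3.15), had overlapping intervals. After thinning, the T cells outside both lineage gates had a Foxp3 UMI in 3 of 145 (2.07%) and 6 of 338 cells (1.78%). The ratio of 0.858 (0.183 to 5.30) resolved neither a gain nor a loss of such cells.

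The 20 Foxp3-positive cells of cmExoaCD11b were rich in regulatory T cell genes that the choice of cells did not use. Ikzf2 stood at 3611 CPM in them and 181 CPM in the remaining T cells of all T gates, CD8 T cells included. This is a quotient of 19.9 (17.1 to 23.2). In the 3 PBS cells it was 2222 against 157 CPM (14.2, 7.24 to 25.1). In cmExoaCD11b the interleukin 2 receptor gene Il2ra was 17.1 (11.8 to 24.1) times as high, the Ikaros family gene Ikzf4 16.2 (5.99 to 38.1), Tnfrsf4 6.41 (4.57 to 8.78), the checkpoint gene Ctla4 5.90 (4.59 to 7.49) and Tnfrsf18 5.18 (3.52 to 7.39), whereas Icos was not resolved (1.37, 0.834 to 2.13). The effector and exhaustion list differed in both directions in these cells. Tox (6.08, 5.07 to 7.24), Pdcd1 (4.58), Batf (3.36, 2.28 to 4.80) and Prdm1 (2.31, 1.18 to 4.10) were higher, and Gzmb (0.406, 0.244 to 0.635), Ifng (0.117, 0.0318 to 0.299), Nr4a2 (0.284, 0.114 to 0.587) and Runx3 (0.253, 0.0821 to 0.593) lower. Outside the list, Tbx21 was at 0.0912 (0.0110 to 0.330) of the level in the remaining T cells. The chemokine gene Ccl5 was at 0.0377 (0.0239 to 0.0566) and Nkg7 at 0.0157 (0.000397 to 0.0875), and Gzma had 0 UMIs. The reference includes the CD8 T gate, which held 0 Foxp3 UMIs. In cmExoaCD11b, CD8 T and CD4 T levels were 16917 and 3331 CPM for Ccl5, 2458 and 165 for Gzma, and 459 and 201 for Tbx21. The quotients were not computed against CD4 T cells alone. Lef1 (0.437, 0.188 to 0.864), Bach2 (0.0768, 0.00194 to 0.429) and Klf2 (0.418, 0.262 to 0.634) were lower in the Foxp3-positive cells and Id2 (1.56, 1.24 to 1.94) higher. In the 3 PBS cells these quotients lay on the other side of 1 for Bach2 (4.05), Klf2 (1.75, 0.640 to 3.81) and Id2 (0.214), with intervals that include 1.

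In the 130 and 227 cells of the CD4 T gate without a Foxp3 UMI, Ikzf2 was at 37.8 and 162 CPM, a ratio of 4.28 (2.81 to 6.79). Regulatory cells whose Foxp3 was missed cannot be told apart from other cells in this group. CD4 T cells with an Ikzf2 UMI, 14 in PBS and 63 in cmExoaCD11b, were compared with those without. Tox (2.04 in PBS, from a lower bound of 1.36, and 2.84, 2.39 to 3.37, in cmExoaCD11b) and Gzmb (3.37, 1.81 to 6.13, and 2.80, 2.15 to 3.64) were higher in them in both libraries. Klf2 (0.332, 0.191 to 0.540, and 0.470, 0.391 to 0.562), Bach2 (0.214, 0.0253 to 0.813, and 0.539, 0.358 to 0.792) and the interferon-gamma gene Ifng (0.0267, 0.000672 to 0.150, and 0.336, 0.256 to 0.436) were lower in both. Some genes differed in opposite directions in the 2 libraries, with both intervals excluding 1. Prdm1 was at 2.84 (1.57 to 4.97) in PBS and 0.517 (0.295 to 0.865) in cmExoaCD11b. Satb1 was at 1.66 (1.19 to 2.29) and 0.639 (0.505 to 0.803), and Ccl5 at 1.52 (1.38 to 1.67) and 0.390 (0.358 to 0.425). Stat4 and Gzma were likewise higher in PBS and lower in cmExoaCD11b, and Runx1 the reverse. These cells were thus not alike in both libraries. Other genes differed in cmExoaCD11b and were not resolved in PBS. Ctla4 was at 1.14 (0.700 to 1.77) in PBS and 2.11 (1.71 to 2.61) in cmExoaCD11b, Pdcd1 at 1.16 (0.470 to 2.53) and 2.73 (1.83 to 4.10), Mki67 at 2.52 (0.568 to 9.04) and 5.37 (3.31 to 8.98), and Tbx21 at 1.12 (0.612 to 1.93) and 0.590 (0.426 to 0.805). The 9 Foxp3 UMIs of the gate were all in cells with an Ikzf2 UMI. In CD4 T cells with an Il2ra UMI, 15 in PBS and 27 in cmExoaCD11b, Ikzf2 had 47.7 and 566 CPM, and in those without it 35.9 and 189 CPM (ratio 5.27, 3.32 to 8.83).

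Of the 4 lists in the CD4 T gate, 2 of 7 naive and memory genes were called higher and 1 lower. These were Ccr7 (3.02 and 34.4 CPM, 11.4, 2.95 to 97.3), S1pr1, a target of Klf2 in tissue exit (36.3 and 75.7 CPM, 2.09, 1.32 to 3.43), and Cxcr3 (208 and 135 CPM, 0.648, 0.512 to 0.820). Of 17 effector and exhaustion genes, 5 were called higher and 0 lower, with Irf8 at 5.98 (2.60 to 16.9), Lag3 at 5.41 (1.95 to 20.9), Gzmb at 2.75 (2.02 to 3.79), Tox at 2.25 (1.87 to 2.73) and Nr4a2 at 1.80 (1.34 to 2.46). In PBS, Ccr7 had only 2 UMIs, Lag3 4 and Irf8 6, so the size of these 3 ratios is poorly known. Of 7 regulatory T cell genes tested, Il10 (16.6 and 72.3 CPM, 4.35, 2.31 to 9.04) and Il2ra (27.2 and 50.7 CPM, 1.87, 1.09 to 3.36) were called higher, and 5 were not called. Of 6 helper regulators, Runx1 was called higher at 1.67 (1.38 to 2.02). Several of these calls were lost without the cells with an Il2ra UMI, 15 in PBS and 27 in cmExoaCD11b. The 27 cells held 147 of the Gzmb UMIs and 54 of the Il10 UMIs of the cmExoaCD11b gate. In the 115 and 208 cells without an Il2ra UMI the ratio was 1.14 (0.803 to 1.65) for Gzmb, 1.51 (0.738 to 3.35) for Il10, 2.66 (0.997 to 8.94) for Irf8 and 2.78 (0.930 to 11.2) for Lag3, each with an interval that includes 1, and 1.79 (1.47 to 2.20) for Tox. Only the Gzmb ratio fell below 1.5 there. For Il10, Irf8 and Lag3 the ratio still passed 1.5, and the interval, from fewer UMIs, did not exclude 1. The regulatory list was not uniformly higher, since Ctla4 (1.45), Tnfrsf4 (1.04) and Icos (0.786) stayed under the threshold.

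In NK cells the T-box factors were high in both libraries and did not differ by the threshold. Of 8 members tested, 0 were called higher and Klf2 was called lower, where 7.95% of 3825 genes were called higher and 4.39% lower. The median log2 ratio was -0.14 over the members and 0.16 over all genes. The gate rests on 25 PBS cells.

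Tbx21 reached 661 CPM in PBS (508 to 845) and 655 CPM in cmExoaCD11b NK cells (571 to 748), a ratio of 0.991 (0.746 to 1.33). Eomes had 231 CPM (145 to 349) and 201 CPM (156 to 256), a ratio of 0.872 (0.532 to 1.48). These intervals do not show that the levels were equal. Without the limit on other-cell markers, with 33 and 104 cells, the Tbx21 ratio was 1.87 (1.43 to 2.47). Klf2 had 2339 CPM (2042 to 2667) and 1439 CPM (1313 to 1574), a ratio of 0.615 (0.524 to 0.725). In PBS, 5 of the 25 cells held 133 of the 223 Klf2 UMIs, so the counting interval is too narrow. Thinned, 79.2% and 59.6% of cells had a Klf2 UMI, a ratio of 0.752 (0.438 to 1.35) that includes 1. The Klf2 call was lost without doublet removal (0.702, 0.598 to 0.826) and without the limit on other-cell markers (0.891, 0.772 to 1.03). Id2, which NK cells need to develop, had 1101 and 1529 CPM, a ratio of 1.39 (1.12 to 1.73). Tcf7 (1.27, 0.548 to 3.41), Lef1 (0.747, 0.477 to 1.20), Bach2 (0.921, 0.597 to 1.46) and Ikzf2 (73.4 and 66.1 CPM) were not resolved. Of the lists, 3 of 4 naive and memory genes, 5 of 13 effector and exhaustion genes and 3 of 4 helper regulators were called higher and 0 lower, and the 1 regulatory T cell gene tested was not called. They included Tox (62.9 and 321 CPM, 5.11, 2.27 to 14.2), Batf (21.0 and 111 CPM, 5.30, 1.37 to 45.4), Il7r (31.5 and 144 CPM, 4.58, 1.48 to 23.0) and Gzmb (545 and 1226 CPM, 2.25, 1.68 to 3.06). The minimum of UMIs applied to both libraries together, and the gate held 95348 UMIs in PBS and 332840 in cmExoaCD11b. Genes scarce in cmExoaCD11b were thus less likely to be tested, so these counts do not weigh both directions equally. Among all genes tested in this gate, under the same minimum, 7.95% were called higher and 4.39% lower.

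The 3 gates differed from one another in ways that held in both libraries. Eomes was higher in CD8 T than in CD4 T cells, by a factor of 30.3 (5.13 to 1227) in PBS and 49.2 (13.4 to 410.5) in cmExoaCD11b, and Tcf7 lower, at 0.638 (0.446 to 0.911) and 0.571 (0.460 to 0.709). Of all genes tested, 2.09% were called higher and 2.62% lower in CD8 T than in CD4 T cells of both libraries. Against NK cells, CD8 T cells were called higher in Ikzf2 (2.72, 1.29 to 6.86, and 1.89, 1.21 to 3.07), where 3.34% of genes were. The PBS side of this call rests on few cells. A single cell held 83 of the 170 Ikzf2 UMIs of the CD8 T gate, and without it the level was 105 CPM. The NK level of 73.4 CPM came from 7 UMIs, 5 of them in 1 cell. The call was not repeated without these cells. CD8 T cells were called lower than NK cells in Klf2, Id2 and Eomes, where 4.01% of genes were. The Eomes level of CD8 T cells was 0.198 (0.115 to 0.351) of that in NK cells in PBS and 0.421 (0.312 to 0.572) in cmExoaCD11b, and that of Tbx21 0.312 (0.233 to 0.424) and 0.701 (0.602 to 0.819). Id2 was at 0.529 (0.428 to 0.660) and 0.553, with an upper bound of 0.614 in cmExoaCD11b. CD4 T cells were called lower than NK cells in Bach2, Klf2, Eomes and Tbx21, where 5.10% of genes were, and higher in 0 members, where 4.62% of genes were. Their Tbx21 level was 0.222 (0.160 to 0.310) and 0.307 (0.254 to 0.371) of that in NK cells.

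**Figure D4:**
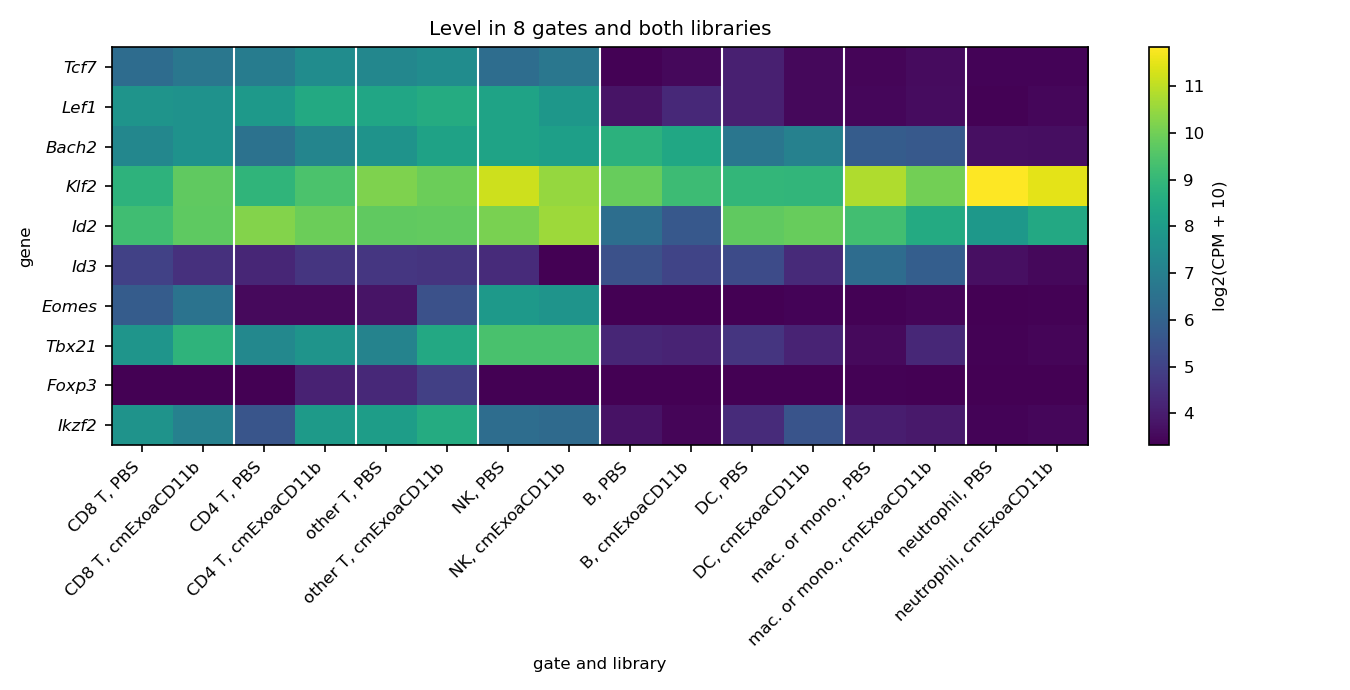
Level of the 10 transcription factors as log2(CPM + 10) (color) in 8 gates and both libraries (columns). Tcf7 and Lef1 are bright in T and NK gates and dark elsewhere, Eomes is brightest in NK cells, and Klf2 is brightest in neutrophils at 3652 and 2882 CPM.

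Outside these gates the members fell into patterns of their own. Tcf7 stayed at or below 6.69 CPM and Eomes at or below 0.733 CPM in B cells, dendritic cells, macrophages or monocytes and neutrophils of both libraries. Bach2 was also a gene of B cells, at 439 and 328 CPM. Id2 was also found in dendritic cells (865 and 913 CPM), and Id3 was found in macrophages or monocytes, at 70.5 and 48.8 CPM. T cells outside both lineage gates also differed in the T-box factors. Tbx21 reached 131 CPM in PBS and 339.9 CPM in cmExoaCD11b there, a ratio of 2.59 with an upper bound of 3.39. Eomes had 3.81 and 32.9 CPM, from 2 and 42 UMIs, a ratio of 8.64 (2.25 to 73.7). A UMI of Trdc, a gene of the gamma delta T cell receptor, occurred in 7 of 154 and 21 of 363 of these cells. Whether these cells were gamma delta T cells was not tested. In the NK gate, which allows no Cd3 UMI, the PBS cell with most Klf2 UMIs had 3 Trdc UMIs.

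Over the 16 points of 8 gates and 2 libraries, 12724 genes were ranked by Pearson r of log2(CPM + 10) with each member, as a description. Tcf7 was closest to the T cell receptor chain gene Cd247 (0.993) and to Lef1 (0.989), and Lef1 to Tcf7 and the kinase gene Lck (0.989). Eomes was closest to Prf1 (0.969), Tbx21 to the interleukin 2 receptor gene Il2rb (0.981) and Ikzf2 to Il2ra (0.975). Klf2 followed Sde2 (0.922), Id2 followed Iqgap2 (0.954), Bach2 followed Srsf10 (0.973) and Id3 followed Ppp1r14b (0.917). Foxp3, with few UMIs, reached 0.885 with 4930417O13Rik and 0.846 with Izumo1r. The points share libraries and neighboring gates, and the r values carry no test.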

How the data were processed

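Single-cell RNA-seq UMI counts were deposited by the authors as 1 matrix of all barcodes per treatment, not normalized. The file headers name Cell Ranger 7.1.0 and the methods of the study name version 3.0.2, and the genome build is not given in the sources used here. Barcodes were kept as cells above a ranked-UMI cut-off or, from 500 UMIs, by a test against empty droplets (10000 simulations, false discovery rate 0.01), if they had 200 genes or more and no more than 20% of UMIs from mitochondria. Scrublet in scanpy 1.11.5 marked no doublets by its automatic threshold, so the cells with the highest scores were removed at 0.8% per 1000 cells, 421 in PBS and 452 in cmExoaCD11b. Cells were gated by marker UMIs and counts summed per gate and library, as CPM. Intervals are exact (scipy 1.17.1). Summed over cells that passed, depth was 50455429 UMIs (PBS) and 62445672 UMIs (cmExoaCD11b). With 1 library per treatment, no p-value was computed, and the intervals do not cover differences between mice. Those of levels and their ratios also leave out spread between cells. Free RNA was estimated from S100a8 and S100a9 in droplets of at most 100 UMIs. The ratios and their call rule were run on simulated Poisson counts, the model that the intervals assume, without clustering of UMIs in cells. That run cannot show how the calls hold where few cells carry many UMIs. The 10 members and the 4 gene lists (39 genes) were chosen with earlier results of these data known. The genes named were all members in each gate, at most 6 per list with the largest ratios, and up to 3 genes closest in pattern. An allele of the tumor line, 1 gene of the lists with the CD8 T cell split that used it, and 1 gene close in pattern are not reported here. Others, such as Nr4a2 and Pdcd1 in CD8 T cells, Ctla4, Tnfrsf4 and Icos in CD4 T cells and the genes named for cells split by a Tcf7, Ikzf2 or Foxp3 UMI, were chosen after their values were seen. Removing the top cell of each library and subtracting free RNA were chosen after seeing the data.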

Additional observations from a re-analysis of the deposited data

Results flagged for a closer look

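Klf2 was called in opposite directions in different gates, higher in cmExoaCD11b than in PBS in CD8 T cells (ratio 1.92) and lower in NK cells (0.615). Ikzf2 was likewise called lower in CD8 T cells (0.625) and higher in CD4 T cells (6.38). The difference between gates was not tested in either case, since each treatment has 1 library. Without the limit on other-cell markers neither Klf2 call was kept, at ratios of 1.03 in CD8 T and 0.891 in NK cells. The CD8 T value of Ikzf2 includes a PBS cell with 83 of the 170 UMIs, and without the top cells it was 1.09. Foxp3 UMIs were also found in T cells outside the CD8 T and CD4 T gates, 5 in PBS and 26 in cmExoaCD11b, whereas the CD8 T gate held 0 in either library.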

How the results depend on the processing

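The 25 ratios of the 3 gates were recomputed under up to 16 alternatives, 376 repeats in all. Of these, 318 kept their call or stayed uncalled inside the main interval, 8 lost the call and 32 gained it. Another 14 left the main interval without a call, and 4 changed direction with a call in either setting. Uncalled ratios that crossed 1 were not counted as changes of direction. Id3 in CD4 T cells, for example, went from 1.61 to as low as 0.866. Tbx21 in CD8 T cells (1.71 to 2.32) and Ikzf2 in CD4 T cells (4.62 to 6.67) were called higher under each of their 16 alternatives. The 4 changes of direction that involved a call were in Ikzf2 of CD8 T cells and Tbx21 of NK cells. Ikzf2 was at 1.95 without dividing cells, 1.07 with cells weighted equally and 1.09 without the top cell. Tbx21 was at 1.87 with no limit on other-cell markers. The number of members called went from 4 to 2 in CD8 T cells with cells weighted equally. In CD4 T cells it went from 2 to 4 without dividing cells, without the limit on other-cell markers, without the limit on S100a8 and S100a9 or without the top cell, and to 6 with cells weighted equally. In NK cells it went from 1 to 2 above the ranked cut-off, without dividing cells or with cells weighted equally, to 0 without doublet removal and to 4 without the limit on other-cell markers. Members called between CD8 T and CD4 T cells went from 2 to 1 without dividing cells, without the S100a8 and S100a9 limit or from 50 UMIs. Above the ranked cut-off, those against NK cells went from 4 to 1 for CD8 T and from 4 to 2 for CD4 T cells. The Foxp3 share of CD4 T cells went from 0.858% to 0% above the ranked cut-off and to 3.40% unthinned. The causes were not tested. The top-cell and free-RNA alternatives were chosen after seeing the data. No paired analysis was possible because each treatment has 1 library from a pool of different mice, and for the same reason no replicate could be left out. Depth limits the NK gate, with 25 PBS cells, and Foxp3 and Id3, with few UMIs.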
